A study of Mus musculus with 112 samples.

Results

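The genes described here encode the enzymes that remove superoxide and hydrogen peroxide: catalase (Cat), the superoxide dismutases Sod1, Sod2 and Sod3, the glutathione peroxidases Gpx1, Gpx3 and Gpx4, and the peroxiredoxins Prdx3, Prdx5 and Prdx6. These 10 genes were chosen by name as a family of enzymes. For 8 of the 10, out of 19938 genes in all, a probe set carried that single gene symbol, and the brightest such probe set stood for the gene. Prdx5 and Prdx6 were not analysed here.

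Expression was measured in heart RNA of male mice from 7 strains, on a caloric restriction (CR) diet or a control diet. Each strain had 8 mice on either diet, and each mouse had an Affymetrix Mouse Gene 1.0 ST array of its own. The inbred strains were 129S1/SvImJ, BALB/cJ, C57BL/6J, C3H/HeJ, CBA/J and DBA/2J (BALB/cJ and C57BL/6J appear in the labels as Balbc/J and C57BL6/J), and the seventh, B6C3F1/J, is a hybrid with C57BL/6J and C3H/HeJ as parents. From 6 weeks of age CR and control mice alike were housed singly on 84 kcal of purified diet per week. CR began at 8 weeks, and the hearts of both diets were taken from fasted mice of 22 weeks. Food was cut a second time in the CR groups of C57BL/6J and 129S1/SvImJ, and BALB/cJ mice were given more food on both diets. The question was whether CR changes these genes in the heart, and in which strains.

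DBA/2J CR replicate 7 correlated with the mean of its group at only r = 0.238 over all probe sets and was left out, which left 55 CR and 56 control hearts. The arrays kept correlated with their group at 0.889 or above, the lowest being CBA/J control replicate 1, and no 2 arrays correlated above 0.992. Ventricular markers were bright in every group (group means 12.24 to 12.81, mean log2 signal of 10 genes). Atrial markers divided the hearts: the mean signal of 8 of 8 atrial markers was 7.27 or below in 75 hearts and 8.17 or above in 36 hearts, 18 CR and 18 control. No 129S1/SvImJ heart was among the 36. In C57BL/6J they were 3 of 8 CR hearts and 7 of 8 control hearts, and in B6C3F1/J 5 of 8 CR hearts and 2 of 8 control hearts. In RNA of a whole tissue, fewer cells of a type and less RNA per cell cannot be told apart.

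Superoxide forms where electrons leak to oxygen, above all in the mitochondrial respiratory chain, on which the heart depends for ATP. Dismutases turn it into hydrogen peroxide, which catalase breaks down to water and oxygen and which glutathione peroxidases and peroxiredoxins reduce with thiols. Catalase works mainly in peroxisomes, where fatty acid oxidation produces hydrogen peroxide, Sod2 and Prdx3 in the mitochondrial matrix, Sod1 chiefly in the cytosol, and Sod3 and Gpx3 outside the cell.

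Catalase was lower in CR hearts, and the manganese superoxide dismutase Sod2 was slightly higher. Across the 7 strains, Cat averaged 10.57 in CR hearts and 11.03 in control hearts (log2 signal), a difference of -0.46 ± 0.04 (CR minus control, SE), or 1.38-fold lower, with an adjusted p of 2.76e-17 (limma, Benjamini-Hochberg over all genes). Sod2 averaged 11.98 in CR hearts and 11.88 in control hearts, a difference of 0.10 ± 0.03, or 1.07-fold higher (adjusted p = 0.00551). Thus 1 of 8 genes was called lower, where 4.34% of all genes tested were, and 1 of 8 was called higher, where 7.69% of all genes tested were. The median difference of the 8 genes was -0.03, beside 0.00 (-0.00261) over all genes. The study's own list of heart genes that respond to CR in several strains, made from these hearts, holds Cat, so its direction here is not independent evidence.

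In 129S1/SvImJ the Cat signal ranged from 10.24 to 10.80 (median 10.47) in CR hearts and from 11.13 to 11.41 (median 11.26) in control hearts, a difference of -0.79 ± 0.09 with all 8 CR hearts below every control heart. In B6C3F1/J the range was 10.02 to 10.83 (median 10.37) in CR hearts and 10.84 to 11.46 (median 11.13) in control hearts, and again no CR heart reached a control heart. The share of all genes whose diet groups separated in this way was not counted. These 2 strains had the largest differences, and in both the gene passed the within-strain test (adjusted p = 1.1e-05 in 129S1/SvImJ, where 2.94% of all genes were called lower, and 0.00274 in B6C3F1/J, where 0.697% were). The fold differences were 1.73 in 129S1/SvImJ and 1.65 in B6C3F1/J, lower in CR.

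In the other strains the groups overlapped. DBA/2J CR hearts lay between 10.32 and 10.65 (median 10.54, 7 mice) and DBA/2J control hearts between 10.64 and 11.27 (median 10.96), so that 6 of 7 CR hearts were below all controls. C57BL/6J CR hearts lay between 10.34 and 10.82 (median 10.59), and C57BL/6J control hearts between 10.60 and 11.79 (median 10.90). C3H/HeJ had the lowest mean Cat on both diets, 10.15 to 10.53 (median 10.37) in CR hearts and 10.12 to 11.22 (median 10.74) in control hearts. In all 3 strains every CR heart was below the control median, as it was in CBA/J. For CBA/J the range was 10.61 to 10.86 (median 10.72) in CR hearts and 10.72 to 11.10 (median 11.03) in control hearts. BALB/cJ differed least, with 10.65 to 11.16 (median 10.95) in CR hearts and 10.68 to 11.26 (median 11.15) in control hearts. The within-strain differences were -0.46 ± 0.09 in DBA/2J, -0.46 ± 0.14 in C57BL/6J, -0.39 ± 0.11 in C3H/HeJ, -0.26 ± 0.08 in CBA/J and -0.15 ± 0.09 in BALB/cJ, and none of the 5 passed adjustment over all genes (adjusted p from 0.0869 to 0.809), a threshold that 0.01% of genes passed in DBA/2J, 0.251% in C57BL/6J, 0.0552% in C3H/HeJ, 0.015% in CBA/J and 0% in BALB/cJ. By the methods' t-test at an unadjusted p under 0.01, Cat was called in 6 of 7 strains, all but BALB/cJ. Over the 8 genes and 7 strains, 9 of 56 such tests passed, where 4.05% of the tests over all genes did.

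**Figure D1:**
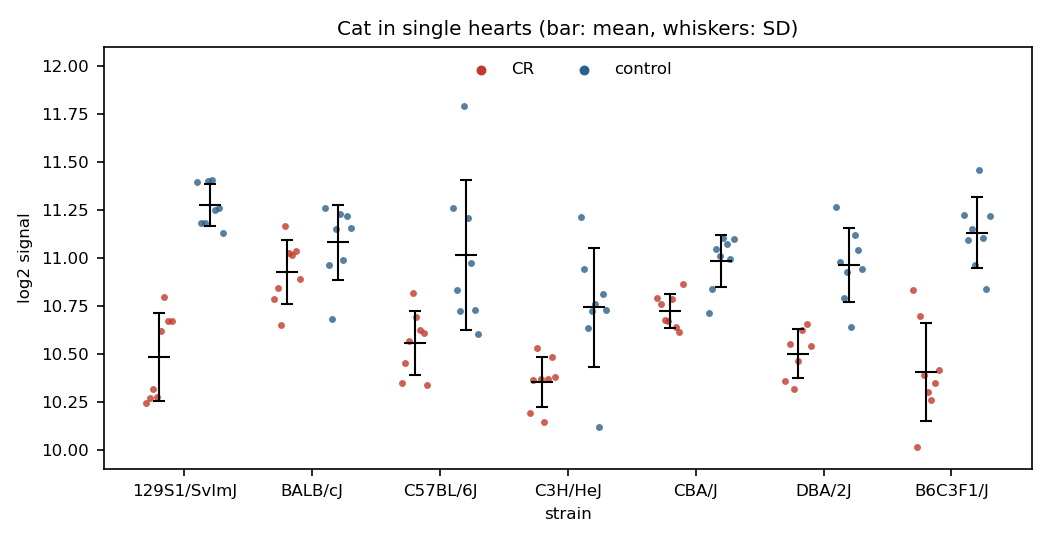
Cat log2 signal (y axis) of each heart by strain (x axis), CR left of control; points are mice (8 per group, 7 in DBA/2J CR), the bar is the mean and the whiskers the SD. CR means lay between 10.36 and 10.93 and control means between 10.74 and 11.28, and the groups did not overlap in 129S1/SvImJ and B6C3F1/J.

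The size of the Cat difference varied between strains. The amount of food varied too, with a second cut in C57BL/6J and 129S1/SvImJ CR mice and more food in BALB/cJ on both diets. For those strains, strain and amount of food cannot be told apart. The strain by diet interaction of Cat had an adjusted p of 0.0344 (moderated F test), and Cat and Sod2 were 2 of 8 genes past this test, which 0.712% of all genes passed. Set against the mean of the other 6 strains, the Cat effect was further below 0 by -0.38 ± 0.11 in 129S1/SvImJ (adjusted p = 0.272, where 0.1% of genes were called lower) and by -0.31 ± 0.11 in B6C3F1/J (adjusted p = 0.0747), and nearer 0 by 0.36 ± 0.11 in BALB/cJ (adjusted p = 1). No single strain was thus set apart for Cat over all genes. The interaction of Cat was lost without 129S1/SvImJ (adjusted p = 0.217), without BALB/cJ (adjusted p = 0.146), without CBA/J (adjusted p = 0.0812), without B6C3F1/J (adjusted p = 0.128) and without B6C3F1/J CR replicate 2, the lowest Cat array of its group (adjusted p = 0.0586).

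Cell markers moved with Cat in part. The mean of the 9 endothelial markers was lower in CR in the same 2 strains as Cat's largest differences. It was 8.57 in CR and 8.84 in control hearts of 129S1/SvImJ, and 8.42 in CR and 8.78 in control hearts of B6C3F1/J. In the other strains its difference (CR minus control) lay between -0.121 in DBA/2J and 0.114 in CBA/J. Across strains 4 of the 9 were called lower, where 4.34% of all genes were. The macrophage marker mean was higher in CR by 0.315 in 129S1/SvImJ and 0.404 in B6C3F1/J, and also by 0.362 in CBA/J and 0.316 in DBA/2J. Its difference (CR minus control) was 0.117 in C3H/HeJ, -0.0341 in BALB/cJ and -0.0954 in C57BL/6J. The part of these markers in the Cat difference was not tested. With the means of the atrial and of the white adipocyte markers as covariates, the Cat difference was -0.44 ± 0.04 (adjusted p = 3.09e-16). Without the 36 hearts of high atrial signal, an alternative chosen after seeing the data, it was -0.49 ± 0.05. That alternative left out 7 of 8 C57BL/6J control hearts. Its C57BL/6J difference thus rested on a single control heart, without a spread of its own.

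The promoter of Cat is printed because Cat carried the largest diet difference of the family. It is the RefSeq sequence of the 250 bases before the start, and its capitals mark matches on either strand to the GC box GGGCGG, to the CCAAT box and to AGGTCA, the core of sites for nuclear receptors.
Cat promoter, GRCm38.p6 chr2:103485154-103485403, minus strand: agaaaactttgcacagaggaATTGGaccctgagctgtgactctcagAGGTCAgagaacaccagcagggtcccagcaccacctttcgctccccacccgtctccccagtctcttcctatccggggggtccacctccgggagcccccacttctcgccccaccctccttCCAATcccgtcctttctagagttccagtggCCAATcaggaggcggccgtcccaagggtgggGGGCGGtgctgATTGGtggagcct
This window held 4 CCAAT matches (first bases at -230, -85, -55 and -13 from the start), 1 GC box (-24) and 1 AGGTCA (-204). At least 1 CCAAT match stood in 33.8% of all 32851 promoter windows of this length, and 4 or more in 0.84%. GC boxes were found in 32.7% of windows and AGGTCA in 14%. The antioxidant response element core TGACNNNGC (10.2% of windows), the FoxO element GTAAACA (3.17%) and a direct repeat of AGGTCA with 1 base between the copies (0.0335%) had no match in these letters. The GC box, CCAAT and AGGTCA alone were added to the search after its first results were seen, and an AGGTCA repeat would hold an AGGTCA match. A match describes letters and does not show that a factor binds.

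Over the means of the 14 strain and diet groups, the genes whose pattern was most like that of Cat were Gclm (Pearson r = 0.955), which encodes the regulatory part of glutamate-cysteine ligase, Aqp7 (0.953), a channel for glycerol, and Retsat (0.936), retinol saturase. All 3 were lower in CR across strains, Gclm by -0.62, Aqp7 by -0.41 and Retsat by -0.52 (log2, CR minus control, adjusted p of 4.9e-08 or less). The 14 means share diet and strain, so r is a description.

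Among the dismutases, Sod2, the manganese enzyme of the mitochondrial matrix, was the only member called. Its mean was higher in CR in 6 of 7 strains. In C57BL/6J Sod2 ranged from 11.60 to 11.98 (median 11.81) in CR hearts and from 11.22 to 11.74 (median 11.44) in control hearts, the lowest control level of the 7 strains. In C3H/HeJ it ranged from 11.93 to 12.26 (median 12.13) in CR hearts and from 11.61 to 12.11 (median 12.04) in control hearts. These are the 2 parents of the hybrid, and in both the CR median was the higher one. B6C3F1/J went the other way, with 11.52 to 12.07 (median 11.77) in CR hearts and 11.77 to 12.07 (median 11.98) in control hearts. In 129S1/SvImJ Sod2 ranged from 11.99 to 12.14 (median 12.05) in CR hearts and from 11.82 to 12.04 (median 11.96) in control hearts, and in BALB/cJ from 11.79 to 12.08 (median 11.97) in CR hearts and from 11.64 to 11.97 (median 11.86) in control hearts. The diet groups overlapped in all 7 strains. DBA/2J had 11.87 to 12.18 (median 12.05) in CR hearts and 11.48 to 12.02 (median 11.94) in control hearts, and CBA/J 12.04 to 12.19 (mean 12.11) in CR hearts and 11.83 to 12.20 (mean 12.09) in control hearts. In each of 129S1/SvImJ, BALB/cJ, C57BL/6J, C3H/HeJ and DBA/2J, 4 CR hearts (of 8, or of 7 in DBA/2J) lay above every control heart, and in B6C3F1/J 5 of 8 CR hearts lay below every control heart.

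The within-strain differences of Sod2 ran from -0.16 ± 0.08 in B6C3F1/J to 0.33 ± 0.10 in C57BL/6J, with 0.11 ± 0.05 in 129S1/SvImJ, 0.11 ± 0.06 in BALB/cJ, 0.15 ± 0.07 in C3H/HeJ, 0.03 ± 0.07 in CBA/J and 0.11 ± 0.08 in DBA/2J, and none passed adjustment within its strain. For C57BL/6J, 129S1/SvImJ and BALB/cJ, strain and amount of food again cannot be told apart. The effect differed between strains (interaction adjusted p = 0.0433). It was 0.27 ± 0.07 above the mean of the other 6 in C57BL/6J (adjusted p = 0.0417, where 0.416% of genes were called higher) and below it, by -0.31 ± 0.07, in B6C3F1/J (adjusted p = 0.0141, where 3.33% were called lower). In both strains the atrial markers moved the opposite way: their mean was 7.65 in CR and 9.88 in control hearts of C57BL/6J, and 8.72 in CR and 7.38 in control hearts of B6C3F1/J. The ventricular markers moved the same way as Sod2, with a mean of 12.62 in CR and 12.24 in control hearts of C57BL/6J, and 12.55 in CR and 12.75 in control hearts of B6C3F1/J, and their part in the Sod2 difference was not tested. The white adipocyte marker mean was 6.57 in CR and 7.78 in control hearts of C57BL/6J, and 6.32 in CR and 6.05 in control hearts of B6C3F1/J. With the atrial and white adipocyte means as covariates the Sod2 differences were 0.22 ± 0.06 in C57BL/6J and -0.12 ± 0.06 in B6C3F1/J, and the interaction was no longer called (adjusted p = 0.138). The interaction of Sod2 was also lost without C57BL/6J (adjusted p = 0.202), without B6C3F1/J (adjusted p = 0.648), without 129S1/SvImJ (adjusted p = 0.0968), without CBA/J (adjusted p = 0.0584) and without B6C3F1/J CR replicate 2 (adjusted p = 0.104).

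The across-strain call of Sod2 was less firm than that of Cat. Sod2 fell out without C57BL/6J (0.06 ± 0.03, adjusted p = 0.143) and after another quantile normalization (0.08 ± 0.03, adjusted p = 0.0912). With the marker covariates it stood (0.09 ± 0.02, adjusted p = 0.00282). Without the 36 hearts of high atrial signal, which left a single C57BL/6J control heart, the Sod2 difference was 0.07 ± 0.03. Over all hearts kept it was 0.10 ± 0.03.

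**Figure D2:**
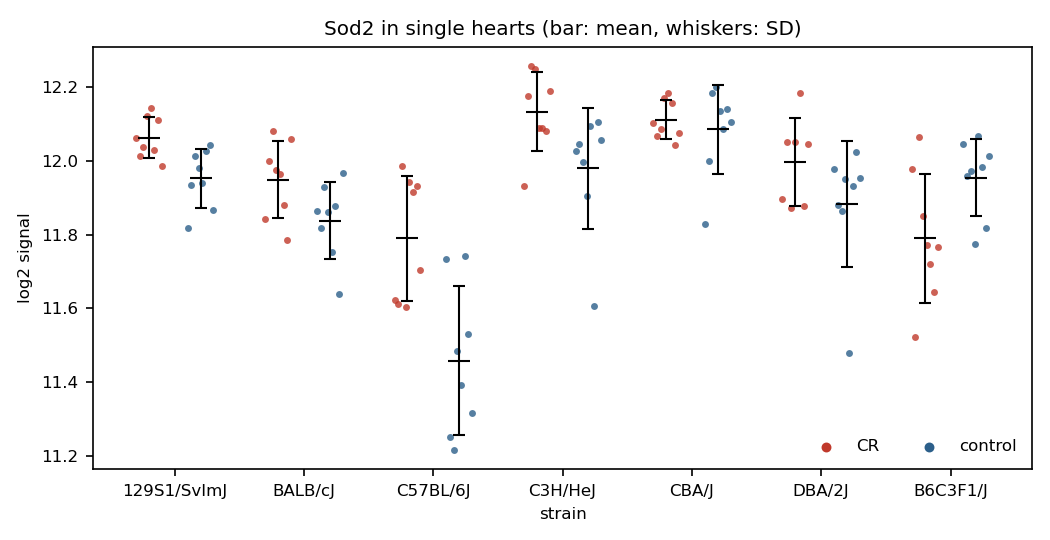
Sod2 log2 signal (y axis) of each heart by strain (x axis), CR left of control; points are mice (8 per group, 7 in DBA/2J CR), the bar is the mean and the whiskers the SD. The CR mean was above the control mean in 6 strains and below it in B6C3F1/J, and C57BL/6J control hearts were lowest with a mean of 11.46.

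The promoter of Sod2 is printed beside that of Cat because the 2 genes were called in opposite directions, with the same capitals.
Sod2 promoter, GRCm38.p6 chr17:13007589-13007838, plus strand: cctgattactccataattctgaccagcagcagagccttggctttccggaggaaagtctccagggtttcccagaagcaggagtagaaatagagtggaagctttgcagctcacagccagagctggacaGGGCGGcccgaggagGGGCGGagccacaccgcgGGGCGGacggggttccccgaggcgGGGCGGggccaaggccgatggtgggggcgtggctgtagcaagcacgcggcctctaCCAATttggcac
It held 4 GC boxes (first bases at -124, -109, -91 and -67) and 1 CCAAT match (-12), and no match to AGGTCA or to the 3 other motifs. Of all windows, 4.09% held 4 or more GC boxes. The GC content was 62% in the Cat window and 63.6% in the Sod2 window, against a median of 52.4% over all windows.

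The genes most like Sod2 over the 14 group means were Ankrd40 (r = 0.960), Sobp (0.945) and Tmem25 (0.940). Tmem25 was called higher in CR across strains (difference 0.15, adjusted p = 0.0108), while Ankrd40 (0.05, adjusted p = 0.341) and Sobp (0.07, adjusted p = 0.465) were not called.

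The other dismutases were not called. Sod1, the copper and zinc enzyme of the cytosol, averaged 10.57 in CR hearts and 10.61 in control hearts, a difference of -0.04 ± 0.03 (95% interval -0.10 to 0.03, adjusted p = 0.539). Its strain differences lay between -0.12 in DBA/2J and 0.09 in BALB/cJ. Sod3, the secreted enzyme held on the cell surface and matrix, averaged 6.60 in CR hearts and 6.68 in control hearts, a difference of -0.08 ± 0.07 (95% interval -0.22 to 0.06, adjusted p = 0.503). Its spread between mice was wide in B6C3F1/J (SD 0.68 in CR and 0.41 in control hearts) and C57BL/6J (SD 0.21 in CR and 0.69 in control hearts) and narrow in 129S1/SvImJ (SD 0.14 in CR and 0.09 in control hearts). Without the 36 hearts of high atrial signal, which left a single C57BL/6J control heart, the Sod3 difference was -0.17 ± 0.06.

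The glutathione peroxidases are selenoproteins that reduce peroxides with glutathione. None of the 3 was called across strains. Gpx1, the cytosolic and mitochondrial form, averaged 8.82 in CR hearts and 8.70 in control hearts, a difference of 0.13 ± 0.07 (95% interval -0.02 to 0.28, adjusted p = 0.274). The mean was higher in CR in 6 of 7 strains. C57BL/6J was the exception at -0.39 ± 0.30, with 8.37 to 10.39 (median 8.94) in CR hearts and 8.55 to 10.45 (median 9.48) in control hearts. B6C3F1/J had the largest difference at 0.60 ± 0.21 (adjusted p = 0.134), with 8.83 to 9.85 (median 9.34) in CR hearts and 8.06 to 9.85 (median 8.62) in control hearts. These are the 2 strains in which the share of hearts with high atrial signal differed most between diets. Without C57BL/6J Gpx1 was called higher (0.22 ± 0.06, adjusted p = 0.0169), but with the marker covariates it was not (0.16 ± 0.06, adjusted p = 0.0704). Without the 36 hearts of high atrial signal, which left a single C57BL/6J control heart, the Gpx1 difference was 0.21 ± 0.06.

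Gpx4, which reduces lipid hydroperoxides in membranes, averaged 9.92 in CR hearts and 9.94 in control hearts, a difference of -0.02 ± 0.06 (95% interval -0.12 to 0.09, adjusted p = 0.903). A second probe set of Gpx4 gave -0.01 ± 0.05. Prdx3, the mitochondrial peroxiredoxin, averaged 10.55 in CR hearts and 10.51 in control hearts, a difference of 0.05 ± 0.04 (95% interval -0.04 to 0.13, adjusted p = 0.548). Without 6 arrays that stood apart, together, the Prdx3 difference was -0.00 (-0.002).

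**Figure D3:**
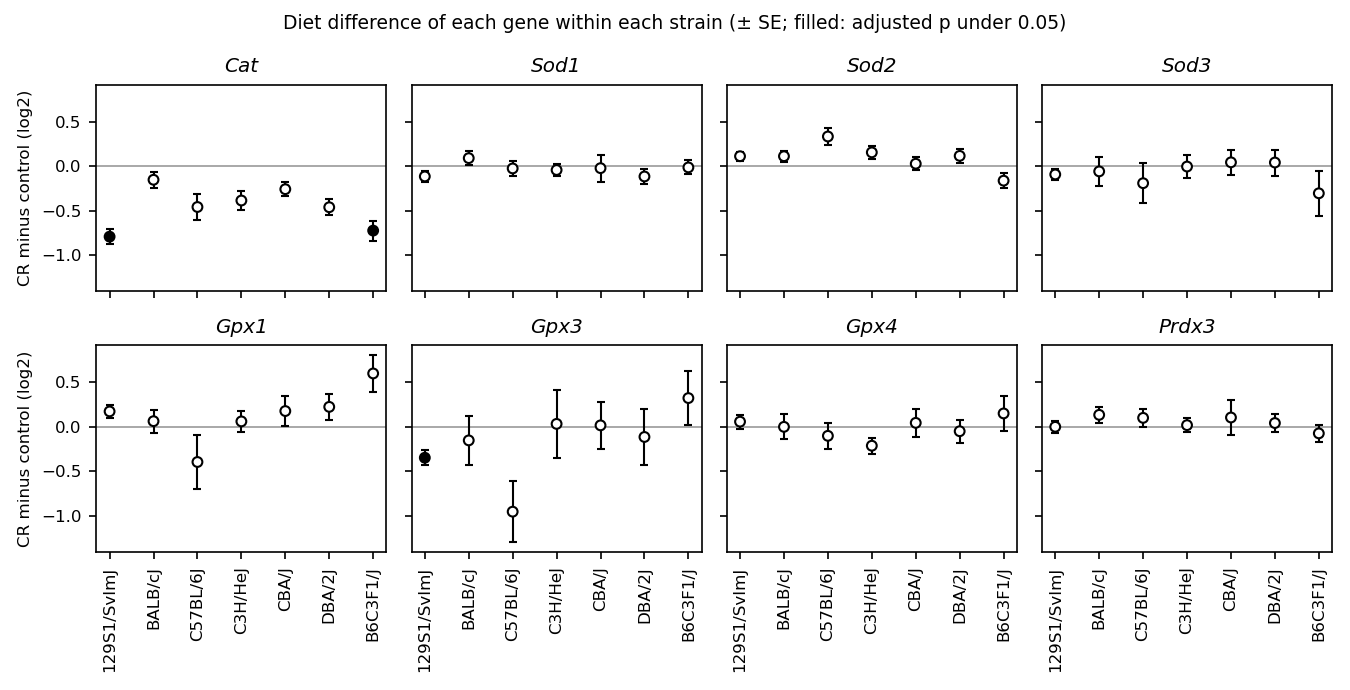
CR minus control difference (y axis, log2, ± SE) of each of the 8 genes in each strain (x axis), fitted within the strain; filled points have an adjusted p under 0.05. Filled points are Cat in 129S1/SvImJ and B6C3F1/J and Gpx3 in 129S1/SvImJ, and Cat lay below 0 in all 7 strains.

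Gpx3, the secreted plasma form, varied most between mice of 1 group, with an SD from 0.15 in 129S1/SvImJ CR hearts to 0.96 in C3H/HeJ control hearts. It averaged 10.02 in CR hearts and 10.19 in control hearts, a difference of -0.17 ± 0.12 (95% interval -0.42 to 0.08, adjusted p = 0.421). In 129S1/SvImJ, where no heart had high atrial signal, it ranged from 9.37 to 9.78 (median 9.54) in CR hearts and from 9.67 to 10.20 (median 9.895) in control hearts, and 6 of 8 CR hearts lay below every control heart. That difference of -0.35 ± 0.08 passed the within-strain test (adjusted p = 0.0121), and with the marker covariates in that fit of the strain alone it was -0.35 and did not (adjusted p = 0.138). In the fit of all 14 groups with the same covariates it was -0.35 ± 0.10 and was called (adjusted p = 0.0331). In the fit of all 14 groups without covariates Gpx3 in 129S1/SvImJ was not called. In C57BL/6J the difference was larger, -0.95 ± 0.35, with 9.17 to 10.90 (median 9.32) in CR hearts and 9.28 to 11.72 (median 10.84) in control hearts, and it was not called (adjusted p = 0.251). In that fit of all 14 groups with the marker covariates the C57BL/6J difference was -0.10 ± 0.11 (adjusted p = 0.836).

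The level of Gpx3 followed the atrial markers among the hearts that had them. Over 35 of the 36 hearts above the gap, in deviations from the strain and diet means of those hearts, Gpx3 correlated with the atrial marker mean at Pearson r = 0.967 and Spearman rho = 0.961 (permutation p = 1e-05 for both, the smallest that 100000 resamples give, 0.00016 after adjustment over 16 relations), and at r = 0.962 without the 2 hearts farthest from the median. One heart was the single one of its group and gave no deviation. Over 74 hearts below the gap the same relation was r = 0.0288 and rho = -0.0272 (permutation p = 0.83 and 0.82, adjusted p = 0.95 and 0.94). The fits of all 14 groups with the marker covariates used a common atrial slope on both sides of the gap.

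In the hearts above the gap Sod3 also rose with the atrial markers (r = 0.657, rho = 0.671, permutation p = 3e-05 and 0.00022, adjusted p = 0.00024 and 0.0018), and r was 0.567 without the 2 farthest hearts. Gpx4 (r = -0.657, rho = -0.654, permutation p = 1e-04 and 0.00053, adjusted p = 0.00053 and 0.0028, r = -0.533 without the 2 farthest) and Prdx3 (r = -0.657, rho = -0.599, permutation p = 0.00065 and 0.0013, adjusted p = 0.0026 and 0.0051, r = -0.567 without the 2 farthest) fell as the atrial markers rose. For Cat the values were r = 0.323 and rho = 0.308 above the gap (permutation p = 0.17 and 0.13, adjusted p = 0.27 for both), and r = -0.357 and rho = -0.316 below it (permutation p = 0.0071 and 0.0093, adjusted p = 0.023 and 0.03), with r = 0.2 and -0.382 without the 2 farthest hearts of each. Below the gap Gpx4 had r = 0.333 and rho = 0.308 (permutation p = 0.04 and 0.016, adjusted p = 0.091 and 0.042), and r = 0.449 without the 2 farthest hearts. On neither side of the gap was there a relation of Sod1, Sod2 or Gpx1 with an adjusted p under 0.05 for r.

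**Figure D4:**
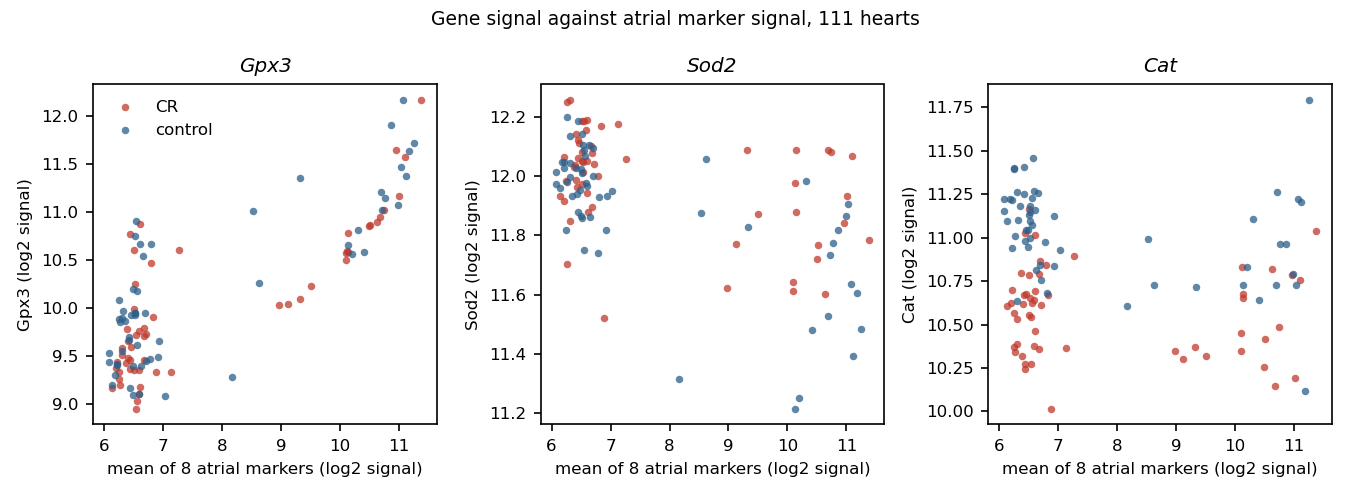
Log2 signal of Gpx3, Sod2 and Cat (y axes) against the mean log2 signal of 8 atrial markers (x axis) in 55 CR and 56 control hearts, by color. The hearts fall below 7.27 or above 8.17 on the x axis, and above it Gpx3 increases with the atrial markers.

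When both marker means were covariates, the spread of Gpx3 shrank and its across-strain difference of -0.17 ± 0.04 was called (adjusted p = 0.00109). When the 36 hearts were left out the spread shrank as well, and the difference was -0.14 ± 0.04, with a single C57BL/6J control heart left. The Gpx3 promoter is shown as that of the gene with the widest range between control strains.
Gpx3 promoter, GRCm38.p6 chr11:54902604-54902853, plus strand: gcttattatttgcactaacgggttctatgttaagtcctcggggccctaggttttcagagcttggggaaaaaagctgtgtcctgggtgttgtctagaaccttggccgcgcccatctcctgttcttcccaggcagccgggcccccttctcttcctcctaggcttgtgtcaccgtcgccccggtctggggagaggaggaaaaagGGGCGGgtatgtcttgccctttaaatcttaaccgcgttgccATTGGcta
It held 1 GC box (-49) and 1 CCAAT match (-8), and none of the other motifs.

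On the control diet alone, all 8 genes differed between strains (moderated F test), as did 60.7% of all genes. BALB/cJ control mice were given more food than the other controls, so for BALB/cJ strain and amount of food cannot be told apart. The range of the 7 control means was largest for Gpx3 (1.43, 2.69-fold) and Gpx1 (1.37, 2.58-fold), above those of 97.9% and 97.6% of all genes. It was 0.95 for Sod3, 0.67 for Prdx3, 0.63 for Sod2, 0.56 for Sod1, 0.53 for Cat and 0.53 for Gpx4, beside a median of 0.39 over all genes. With the marker covariates the range was 1.33 for Gpx3 and 0.87 for Gpx1.

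Gpx1 was highest in C57BL/6J control hearts, 9.54 ± 0.63 (SD, n = 8), and B6C3F1/J came next at 8.78 ± 0.55, a gap of 0.76 ± 0.19 that passed the test (adjusted p = 0.00185, where 12% of genes were called higher in C57BL/6J). With the marker covariates the means were 9.14 in C57BL/6J and 8.84 in B6C3F1/J, and the gap of 0.30 ± 0.18 was not called (adjusted p = 0.281). CBA/J (8.68), C3H/HeJ (8.65), BALB/cJ (8.62), DBA/2J (8.43) and 129S1/SvImJ (8.17) followed, and no neighbours among these or from B6C3F1/J down differed beyond their spread. Gpx3 was highest in BALB/cJ (11.08 ± 0.61), followed by C57BL/6J (10.66), CBA/J (10.14), C3H/HeJ (10.07), 129S1/SvImJ (9.91), B6C3F1/J (9.82) and DBA/2J (9.65), with no neighbouring pair called. In C57BL/6J 7 of 8 control hearts had high atrial signal, and with the marker covariates its Gpx3 mean of 9.81 was above that of DBA/2J (9.67) alone. That fit used a common atrial slope for all hearts, though Gpx3 followed the atrial markers only among the hearts above the gap.

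Sod2 ran from CBA/J (12.09) through C3H/HeJ (11.98), B6C3F1/J (11.95), 129S1/SvImJ (11.95), DBA/2J (11.88) and BALB/cJ (11.84) to C57BL/6J (11.46 ± 0.20), and of these neighbours BALB/cJ and C57BL/6J differed, by 0.38 ± 0.07 (adjusted p = 3.88e-06, where 19.7% of genes were called higher in BALB/cJ). For Prdx3 the order was 129S1/SvImJ (10.91 ± 0.16), CBA/J (10.57), C57BL/6J (10.57), B6C3F1/J (10.44), DBA/2J (10.41), C3H/HeJ (10.40) and BALB/cJ (10.24), and the step from 129S1/SvImJ to CBA/J passed the test (0.34 ± 0.12, adjusted p = 0.0275, where 10.6% of genes were called higher in 129S1/SvImJ). The CBA/J mean of Prdx3 holds replicate 1 at 9.11, far below its next heart at 10.72, and without that array, left out after seeing the data, this step was not called. With the marker covariates, chosen here after seeing the data, C57BL/6J (10.83) came next to 129S1/SvImJ (10.85) for Prdx3. Those 2 strains were not called apart (0.03 ± 0.10, adjusted p = 0.887), while 129S1/SvImJ and CBA/J were (0.33 ± 0.09, adjusted p = 0.005). Cat was highest in 129S1/SvImJ (11.28 ± 0.11), then B6C3F1/J (11.13), BALB/cJ (11.08), C57BL/6J (11.02), CBA/J (10.99), DBA/2J (10.96) and C3H/HeJ (10.74 ± 0.31), with no neighbouring pair called.

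Sod1 was highest in 129S1/SvImJ (10.92 ± 0.14) and lowest in DBA/2J (10.36 ± 0.10), Sod3 highest in BALB/cJ (7.26 ± 0.34) and lowest in 129S1/SvImJ (6.31 ± 0.09), and Gpx4 highest in C57BL/6J (10.25 ± 0.36) and lowest in DBA/2J (9.72 ± 0.30), and no neighbours in these 3 orders differed beyond their spread. With the marker covariates, chosen here after seeing the data, C57BL/6J was lowest for Sod1 (10.35, DBA/2J 10.36) and for Sod3 (6.175, 129S1/SvImJ 6.473). Neither pair was called (adjusted p = 0.925 for Sod1 and 0.143 for Sod3). Gpx4 kept its highest and lowest strain. Of the 168 tests over 21 pairs of strains and 8 genes without covariates, 55 passed, from 4 of 21 pairs for Gpx4 to 9 of 21 for Sod1, where 18% of the tests over all genes did.

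**Figure D5:**
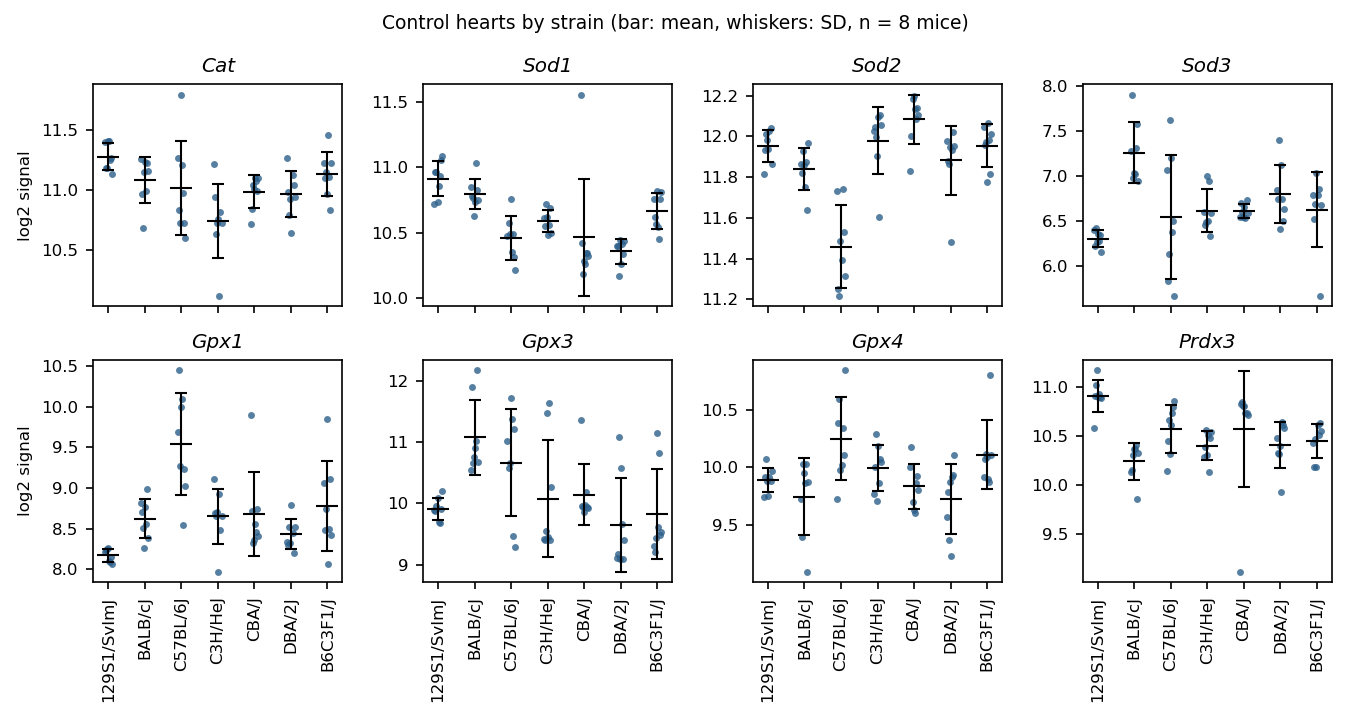
Log2 signal (y axis, its own scale in each panel) of the 8 genes in control hearts of each strain (x axis); points are 8 mice, the bar is the mean and the whiskers the SD. Gpx1 is highest in C57BL/6J, Sod2 lowest in C57BL/6J and Gpx3 highest in BALB/cJ; the lone low Prdx3 and high Sod1 points belong to CBA/J control replicate 1.

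The hybrid was set against its parents on the control diet. Sod2 in B6C3F1/J (11.95) was 0.24 ± 0.06 above the mean of C57BL/6J (11.46) and C3H/HeJ (11.98), the single gene of the 8 that was called (adjusted p = 0.00429, where 5.94% of all genes were called higher). Cat in B6C3F1/J (11.13) was 0.25 ± 0.09 above its parents' mean (adjusted p = 0.0558). The Sod2 call was lost with the marker covariates, chosen here after seeing the data.

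The partners of these enzymes were described from 5 lists, whose counts stand beside the 7.69% of all genes called higher and the 4.34% called lower across strains. Among 16 thioredoxin and glutaredoxin genes, 6 were called higher and 2 lower (median difference 0.04, beside 0.00 over all genes). Msrb1, which repairs oxidized methionine, was higher by 0.21 ± 0.04 (adjusted p = 7.95e-06) and Glrx5, a mitochondrial glutaredoxin of iron-sulfur cluster assembly, by 0.19 ± 0.04 (adjusted p = 2.30e-04). Srxn1, which reactivates overoxidized peroxiredoxins, was lower by -0.16 ± 0.03 (adjusted p = 2.59e-05), and Txnrd1, the cytosolic thioredoxin reductase, by -0.17 ± 0.03 (adjusted p = 2.92e-05).

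Of 8 copper and manganese delivery genes, 4 were called higher, where 7.69% of all genes were, and 0 lower, where 4.34% were (median difference 0.10). Slc31a1, the copper importer of the cell membrane, was higher in 7 of 7 strains by 0.32 ± 0.04 (adjusted p = 1.99e-09). Slc11a2, a transporter of iron and manganese, was higher by 0.16 ± 0.05, the copper chaperones Atox1 by 0.11 ± 0.04 and Cox17 by 0.14 ± 0.05. Ccs, which loads copper into Sod1, was counted among the 13 other dismutase and peroxidase genes and was not called (0.05 ± 0.04, adjusted p = 0.410). In that list only Gpx8, a peroxidase of the endoplasmic reticulum, was called, higher by 0.17 ± 0.05 (adjusted p = 0.0175).

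Among 10 genes of selenoprotein synthesis, on which the glutathione peroxidases depend, 2 were called higher and 1 lower, against the same 7.69% and 4.34% of all genes. Pstk, a kinase of the selenocysteine tRNA, was higher by 0.23 ± 0.04 (adjusted p = 4.46e-06) and Scly, which releases selenium from selenocysteine, by 0.09 ± 0.03 (adjusted p = 0.0445), while Secisbp2l was lower by -0.09 ± 0.03 (adjusted p = 0.0298). Among 19 measured of 20 sources of superoxide and hydrogen peroxide, 2 were called higher and 1 lower (median difference 0.00, 0.000509). Ddo, a peroxisomal D-aspartate oxidase, was higher by 0.21 ± 0.05 (adjusted p = 0.00184) and Cyba, a subunit of NADPH oxidase, by 0.19 ± 0.05 (adjusted p = 0.00591). Duox1 was lower by -0.12 ± 0.04 (adjusted p = 0.0348), at a low signal of 4.83 in CR and 4.95 in control hearts. Macrophages, which express Cyba, had markers higher in CR as well, with 5 of 9 called and a list mean higher by 0.20, and their part in the Cyba difference was not tested.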

How the data were processed

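Heart RNA of 112 mice was hybridized to Affymetrix Mouse Gene 1.0 ST arrays (5 µg total RNA labeled with biotin). The authors deposited a log2 signal for each probe set, computed in Affymetrix Expression Console with RMA (background correction, quantile normalization across arrays, median polish), which takes out part of any change shared by most genes, and dim genes show smaller differences than their RNA. The version of the software is not given in the sources used here. Arrays have no read depth, and their number limits the precision.

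Of 35556 probe sets, 21789 had 1 symbol in the annotation, 1621 several and 12146 none there. Probe sets with 1 symbol gave 19938 genes, each by the probe set with the largest mean signal (999 genes had several). A model with a mean for each of the 14 groups was fitted (lmFit and eBayes of limma 3.58.1, R 4.3.3), and within-strain effects on the arrays of that strain. Tests were 2-sided, p-values were adjusted by Benjamini-Hochberg over all genes, and 0.05 was the threshold. The replicates are mice, 1 to an array, and their spread is what the p-values rest on. The scripts were tested on simulated data. Correlations with the atrial marker mean were tested by permutation within groups, separately for the hearts on either side of the widest gap of that mean. The text names every measured member, up to 4 called genes of a list with the smallest p, and the 3 genes most like a called member. Promoters are RefSeq sequences of GRCm38.p6. Plots were drawn with matplotlib 3.10.9.

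The members and lists were chosen with earlier results of these data known. DBA/2J CR replicate 7 was left out, as the study used 7 DBA/2J CR hearts. The closing section gives the effect of other normalizations, filters, covariates, array weights, variance models, the replicate number as a block and the leaving out of strains or arrays.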

Additional observations from a re-analysis of the deposited data

Results flagged for a closer look

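In groups of 7 or 8 mice, 11 of 112 combinations of gene and group had 1 heart far from the others (a gap to the nearest heart above Dixon's 95% value), where chance gives about 1 in 20. CBA/J control replicate 1 was the heart apart for 4 genes: Sod1 (11.56, the next heart at 10.42), Gpx1 (9.903, next 8.74), Gpx3 (11.35, next 10.18) and Prdx3 (9.11, next 10.72). DBA/2J control replicate 5 was low for Sod2 (11.48, next 11.87) and Prdx3 (9.92, next 10.31). B6C3F1/J control replicate 7 was low for Sod3 (5.68, next 6.53) and high for Gpx4 (10.81, next 10.11). C3H/HeJ CR replicate 1 was high for Sod1 (10.82, next 10.59), C3H/HeJ control replicate 6 low for Sod2 (11.61, next 11.91), and CBA/J CR replicate 2 low for Gpx4 (8.91, next 9.83). No heart stood apart in this way for Cat.

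The diet difference varied between strains for Cat (interaction adjusted p = 0.0344) and for Sod2 (adjusted p = 0.0433), with limma over all genes.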

How the results depend on the processing

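The Cat difference across strains kept its direction and its call in all 25 alternatives run. The number of the 8 genes called across strains was 2, but 1 with all 112 arrays and 1 after another quantile normalization (Cat in both), and 4 without the hearts of high atrial signal. With all 112 arrays the Sod2 difference was -0.0069 and that of Prdx3 -0.03661, without strain C3H/HeJ that of Gpx4 was 0.01742, and without 6 arrays that earlier results set apart, together, that of Prdx3 was -0.001997, none of these called. The interaction, 2 genes, was the least stable. It called 0 with all 112 arrays, after another quantile normalization, without strain 129S1/SvImJ, CBA/J or B6C3F1/J and without B6C3F1/J CR replicate 2. It called 1 with each array centered on its median, the marker covariates, the replicate block and without strain BALB/cJ or C57BL/6J. Without the 6 arrays together it called 3, namely Cat, Sod2 and Gpx1. The F test among control strains called 3 of 8 genes with all 112 arrays. Within strains 3 calls became 5 with all 14 groups in 1 fit. There Gpx3 in 129S1/SvImJ was out, and Cat and Sod2 in C57BL/6J and Gpx1 in B6C3F1/J were in. The 3 calls became 9 by the t-test on log2 signals at an unadjusted p under 0.01, and 6 without the 6 arrays together. With the marker covariates in the fit of each strain they stayed 3 in number, with Cat in DBA/2J in and Gpx3 in 129S1/SvImJ out. The hybrid contrast, 1 gene, called 0 after another quantile normalization and with the marker covariates, and 2 without CBA/J control replicate 1 and without B6C3F1/J CR replicate 2 (range 1 to 2 when each of the 6 arrays was left out in turn). Pairs of control strains called 43 to 69 of 168, beside 55. The cause of these changes was not tested. The setting without the hearts of high atrial signal left out 7 of 8 C57BL/6J control hearts. Its C57BL/6J difference thus rested on a single control heart. Leaving out the 6 arrays together or the hearts of high atrial signal, leaving out single arrays in the contrasts between control strains and the interaction, and the covariates in the pair and hybrid contrasts were chosen after seeing the data. The share of called genes that were higher was 63.9%, and 71.3% with centering, 51.3% with all 112 arrays, 57.2% after quantile normalization, 54.4% with array weights and 54.5% without the hearts of high atrial signal. The number of genes called across strains was 2399, but 1066 with all 112 arrays, 1239 without strain 129S1/SvImJ, 3875 without the hearts of high atrial signal and 4480 with array weights. With the replicate block 2 genes were called across strains and 1 in the interaction. Replicate numbers shared by CR and control hearts carried no pairing in the labels: 28 of 55 same-numbered pairs deviated together at r over 0.1 (-0.441 to 0.674), and 15 of 55 CR hearts were closest to the control heart of their number. The number of arrays limits the precision, and signal over background was not measured here.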
